A study of Homo sapiens with 4 samples.

Results

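Interferon-stimulated genes are genes that cells switch on in answer to interferon, and 37 of them that stand for the type I interferon response were followed through the gene expression data of this study. They were chosen by gene symbol, and 35 of the 37 were found among the 12033 genes of the table, whereas IRF9 and IFI44L were not in the table used here. The cells were BJ-indRASG12V cells, which are human BJ fibroblasts immortalized by hTERT in which 4-hydroxytamoxifen (4-OHT) switches on oncogenic RAS. In every condition 4-OHT was given over 14 days, so that all 4 libraries come from cells with induced RAS and no library measures the cells without it. The conditions differ in the CRISPR guide that was transduced: sgRNA-FOXF1 targets FOXF1, the gene for a forkhead transcription factor of mesenchymal cells, sgRNA-AP1-71 and sgRNA-AP1-69 both target a single AP-1 binding site in the enhancer Enh.AP1.OIS1, which the labels name as the enhancer of FOXF1, and sgRNA-NT is the control guide with no target. Transduced cells were selected with puromycin and are populations rather than clones. The comparison asks whether cells in which the enhancer or FOXF1 was targeted express the interferon-stimulated genes at levels other than those of control cells. Each condition has 1 library, so no level below has a replicate error and no test was made. The only measured spread is that between both enhancer guides, which are different treatments and not replicates. FOXF1 mRNA was at 25 reads per kilobase of transcript, relative to library size (RPKM), in sgRNA-FOXF1 cells, 7.8 RPKM in sgRNA-AP1-71 cells and 11.1 RPKM in sgRNA-AP1-69 cells, against 29.6 RPKM in sgRNA-NT cells, and since transcripts with small deletions can still be counted, the level in sgRNA-FOXF1 cells is no measure of FOXF1 protein. For the protein, the paper reports an effective knockout by western blotting. HRAS, which was lower in each targeted library, was at 707.6, 427.4 and 446.4 RPKM, against 829.4 RPKM with sgRNA-NT.

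Type I interferons bind a receptor made of IFNAR1 and IFNAR2, whose kinases TYK2 and JAK1 activate STAT2 among others. With IRF9 it belongs to the complex ISGF3, which enters the nucleus and binds the interferon-stimulated response element (ISRE) in the promoters of its target genes. The targets encode proteins that bind viral RNA, halt translation, keep viruses from crossing membranes or tag proteins with the ubiquitin-like ISG15, and several of them feed back on the pathway. In fibroblasts the pathway can also be started without a virus, by DNA of the cell itself that reaches the cytosol and is sensed by cGAS and STING, a route that is known from senescent cells.

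Levels are RPKM values that were quantile-normalized over the libraries by the authors, rounded to 1 decimal and set to 1 RPKM, the floor, where they would be lower. Of the 35 genes, 8 were at the floor in all 4 libraries, which is 22.9% of them, against 20.1% of all genes of the table. These are the RNA sensor IFIH1, both MX GTPases (MX1 and MX2), PARP9, IFI27, ISG20, XAF1 and SAMD9. The other 27 were above the floor in at least 1 library, and 19 of them in all 4. In sgRNA-FOXF1 cells 23 genes were above the floor, in sgRNA-AP1-71 cells 25, in sgRNA-AP1-69 cells 22 and in sgRNA-NT cells 20. Of the 7 genes that were at the floor in sgRNA-NT cells and above it elsewhere, 4 were above it in sgRNA-FOXF1 cells, 6 in sgRNA-AP1-71 cells and 3 in sgRNA-AP1-69 cells. These 7 were picked by their floor value in sgRNA-NT cells, so they could only be higher elsewhere. In the other direction, 1 gene, PARP14, was above the floor in sgRNA-NT cells and at it in all targeted libraries. Such counts per library were not made over all genes, so no gain particular to this group can be read from them. In bulk RNA, a lower level in every cell and fewer cells that express a gene cannot be told apart. Ratios were compared for the 18 genes whose levels averaged 2 RPKM or more across the libraries, beside 7596 genes of the whole table that passed the same limit. For 3 of the 18, IFIT1, BST2 and IRF7, the level in sgRNA-NT cells was itself under 2 RPKM, so that they passed only through the targeted libraries and their higher ratios are partly fixed by that limit. The remaining 15 had at least 2 RPKM in sgRNA-NT cells.

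**Figure D1:**
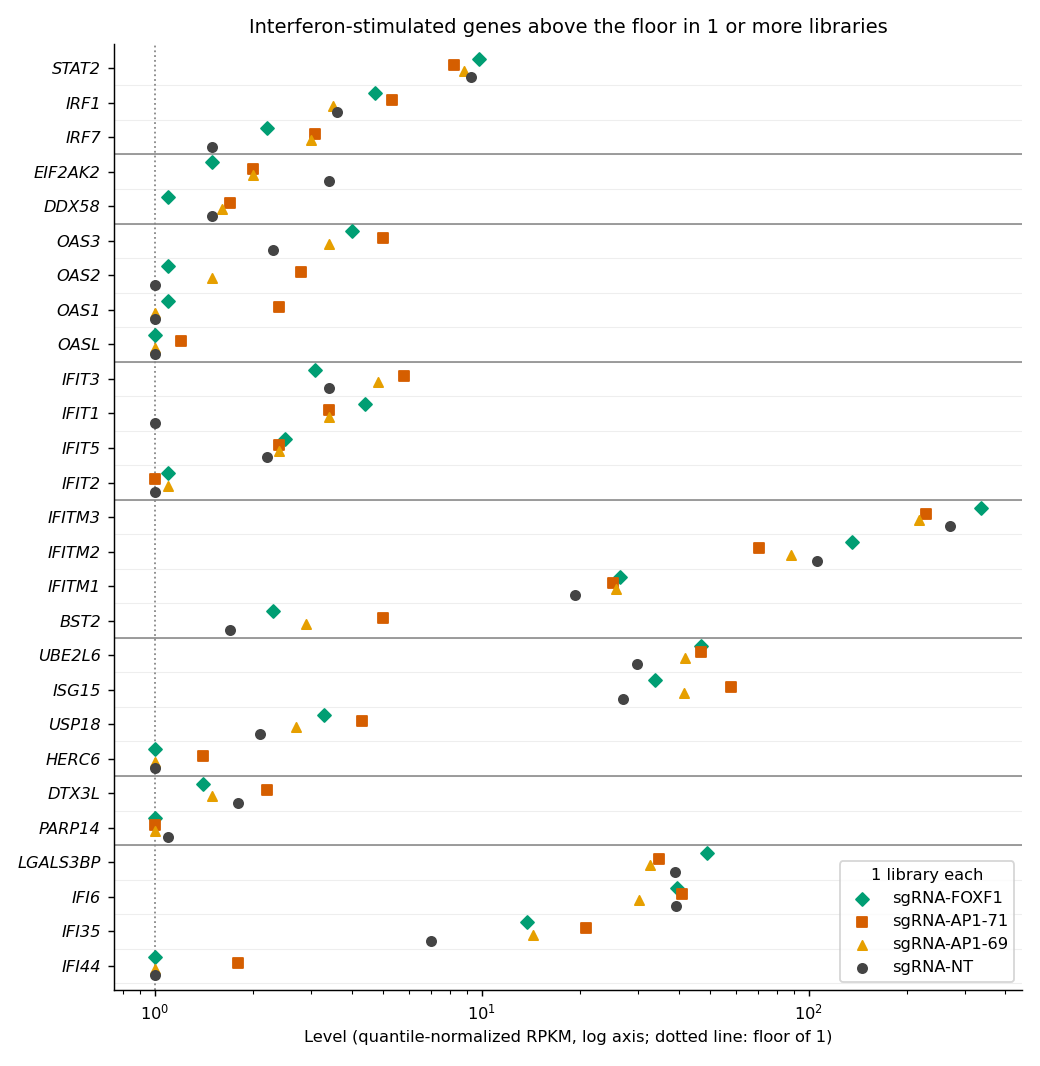
Levels of the 27 genes above the floor in at least 1 library, in quantile-normalized RPKM on a log axis, with 1 point per library and the floor of 1 RPKM as a dotted line; horizontal lines part the gene families. IFIT1 is at the floor in sgRNA-NT cells alone, EIF2AK2 is highest there, and IFITM2 and IFITM3 are lower with both enhancer guides than with sgRNA-FOXF1 or sgRNA-NT.

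RefSeq promoters, taken as 250 bases before and 50 bases after the transcription start in GRCh38.p14, were matched for 30 of the 37 genes, with DDX58 listed under its newer name RIGI, and not for IFIT2, IFITM2, IRF7, MX2, OAS2, OASL and USP18. A core of the ISRE, which is GAAA followed by 2 bases of any kind and a second GAAA, read on either strand (TTTC, any 2 bases, TTTC on the other), occurred in 20 of these 30 promoters (66.7%), against 996 of 27305 promoters in all (3.65%). The core is what ISGF3 and related IRF proteins recognise, and its letters alone do not show that a protein was bound in these cells. Among the 15 compared genes with a promoter 11 held the core (73.3%), and among the 7 with a promoter that stayed at the floor in all 4 libraries 5 held it (71.4%). The gamma-activated site, TTCNNNGAA, which is a motif of STAT dimers and reads the same on both strands, occurred in 8 of the 30 promoters (26.7%), against 7.88% of all promoters. Both motifs can overlap. No ISRE core of this spelling lay within the window of IFI35, UBE2L6, OAS1, STAT2, IRF1, IRF9, DDX58, XAF1, PARP9 or HERC6. Over the 11 compared genes with the core, the median log2 ratio to sgRNA-NT was 0.32, 0.38 and 0.41 with sgRNA-FOXF1, sgRNA-AP1-71 and sgRNA-AP1-69, and for the 4 without it the median was 0.52, 0.61 and 0.22 in the same order of guides.

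The promoters of the 6 genes with a core and the largest mean absolute log2 ratio among those described below are printed from 160 bases before to 10 bases after the start, 5′ to 3′ on the strand of the gene. They show how near the core lies to the start and how many copies there are. Capitals mark the ISRE cores, and a longer run of capitals is a pair of overlapping cores.
IFIT1 promoter, chr10:89392463-89392632, plus strand: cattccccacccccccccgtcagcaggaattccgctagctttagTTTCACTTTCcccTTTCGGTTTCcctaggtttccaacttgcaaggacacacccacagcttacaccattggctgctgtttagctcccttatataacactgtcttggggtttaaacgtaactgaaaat
BST2 promoter, chr19:17405621-17405790, minus strand: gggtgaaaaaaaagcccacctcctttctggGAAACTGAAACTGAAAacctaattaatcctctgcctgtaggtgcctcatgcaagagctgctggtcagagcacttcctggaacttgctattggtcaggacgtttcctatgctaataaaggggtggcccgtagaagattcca
EIF2AK2 promoter, chr2:37156971-37157140, minus strand: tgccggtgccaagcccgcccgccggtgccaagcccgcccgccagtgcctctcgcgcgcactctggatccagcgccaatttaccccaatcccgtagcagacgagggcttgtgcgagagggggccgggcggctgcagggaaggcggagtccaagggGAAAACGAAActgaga
OAS3 promoter, chr12:112938314-112938483, plus strand: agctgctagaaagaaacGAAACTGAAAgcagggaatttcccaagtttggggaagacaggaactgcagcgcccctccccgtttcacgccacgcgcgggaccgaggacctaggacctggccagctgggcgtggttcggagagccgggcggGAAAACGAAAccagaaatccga
ISG15 promoter, chr1:1013337-1013506, plus strand: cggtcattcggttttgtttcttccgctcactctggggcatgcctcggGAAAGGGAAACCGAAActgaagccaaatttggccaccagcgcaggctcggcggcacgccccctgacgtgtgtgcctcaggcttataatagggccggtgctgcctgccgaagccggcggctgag
IFIT3 promoter, chr10:89327837-89328006, plus strand: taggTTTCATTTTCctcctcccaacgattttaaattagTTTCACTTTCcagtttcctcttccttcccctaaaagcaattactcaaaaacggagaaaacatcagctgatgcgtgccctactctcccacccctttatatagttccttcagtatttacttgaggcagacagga
In IFIT1 the cores start 116 and 103 bases before the transcription start and in IFIT3 156 and 122 bases before it. BST2 and ISG15 each have an overlapping pair, which starts 130 bases before the transcription start in BST2 and 113 bases before it in ISG15. The OAS3 cores start 143 and 12 bases before the transcription start, and the single core of EIF2AK2, which starts 6 bases before it, runs across it.

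The genes of the complex that carries the signal, ISGF3, and of the IRF factors were low to moderate in level. STAT2, the interferon-specific subunit of ISGF3, was at 9.8 RPKM in sgRNA-FOXF1 cells, 8.2 RPKM in sgRNA-AP1-71 cells and 8.8 RPKM in sgRNA-AP1-69 cells, against 9.3 RPKM in sgRNA-NT cells. All 4 levels lay close together, with log2 ratios to sgRNA-NT between -0.18 and 0.08. IRF7, the factor that amplifies type I interferon production, was at 2.2, 3.1 and 3.0 RPKM with sgRNA-FOXF1, sgRNA-AP1-71 and sgRNA-AP1-69, against 1.5 RPKM with sgRNA-NT. Both enhancer guides therefore gave nearly the same level, 2.07-fold and 2-fold above sgRNA-NT, and sgRNA-FOXF1 lay between them and the control at 1.47-fold. IRF1, a factor induced mainly by interferon gamma, was at 4.7, 5.3 and 3.5 RPKM in the 3 targeted libraries, against 3.6 RPKM with sgRNA-NT. Here the enhancer guides differed from each other, as sgRNA-AP1-69 lay at a log2 ratio of -0.04 to the control while sgRNA-AP1-71 was 1.47-fold higher.

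Among the genes of proteins that sense double-stranded RNA, levels were low. EIF2AK2 encodes PKR, the kinase that stops translation when it binds double-stranded RNA, and its gene lies at chr2:37326353-37384665 in hg19. Its mRNA was at 1.5 RPKM in sgRNA-FOXF1 cells, 2.0 RPKM in sgRNA-AP1-71 cells and 2.0 RPKM in sgRNA-AP1-69 cells, against 3.4 RPKM in sgRNA-NT cells. All 3 targeted libraries were lower than the control, by 2.27-fold with sgRNA-FOXF1 and 1.70-fold with each enhancer guide. EIF2AK2 has the longest transcript of the 18 compared genes, at 9975 nt, and with the dependence of ratios on transcript length removed its log2 ratios were -0.57, -0.11 and -0.23 in place of -1.18, -0.77 and -0.77, so that none was past 1.5-fold. DDX58, which encodes the RNA sensor RIG-I, was near the floor at 1.1, 1.7 and 1.6 RPKM with sgRNA-FOXF1, sgRNA-AP1-71 and sgRNA-AP1-69, against 1.5 RPKM with sgRNA-NT.

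The OAS genes encode enzymes that make 2′-5′ oligoadenylate as a second messenger. OAS3 was at 4.0 RPKM in sgRNA-FOXF1 cells, 5.0 RPKM in sgRNA-AP1-71 cells and 3.4 RPKM in sgRNA-AP1-69 cells, against 2.3 RPKM in sgRNA-NT cells. Every targeted library was above the control, by 1.74-fold, 2.17-fold and 1.48-fold in that order, and the length correction gave larger log2 ratios of 1.20, 1.52 and 0.91 in place of 0.80, 1.12 and 0.56. OAS2 was at 1.1, 2.8 and 1.5 RPKM with sgRNA-FOXF1, sgRNA-AP1-71 and sgRNA-AP1-69, against the floor with sgRNA-NT. OAS1 was at 1.1 RPKM with sgRNA-FOXF1, 2.4 RPKM with sgRNA-AP1-71 and at the floor in the other enhancer library, as with sgRNA-NT. OASL, the family member without enzyme activity, left the floor with sgRNA-AP1-71 only, at 1.2 RPKM. For all 4 OAS genes the highest level was that of the sgRNA-AP1-71 library, although for OAS1, OAS2 and OASL it stayed under 3 RPKM.

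The IFIT genes stand in a cluster on chromosome 10 and encode proteins that bind foreign RNA ends and block their translation. IFIT1 (chr10:91152303-91166244 in hg19) was at 4.4 RPKM in sgRNA-FOXF1 cells, 3.4 RPKM in sgRNA-AP1-71 cells and 3.4 RPKM in sgRNA-AP1-69 cells, against the floor of 1.0 RPKM in sgRNA-NT cells. It was thus at least 4.4-fold higher with sgRNA-FOXF1 and at least 3.4-fold higher with each enhancer guide. IFIT3, a partner protein of IFIT1, was at 3.1, 5.8 and 4.8 RPKM with sgRNA-FOXF1, sgRNA-AP1-71 and sgRNA-AP1-69, against 3.4 RPKM with sgRNA-NT. Both enhancer guides were above the control, by 1.71-fold for sgRNA-AP1-71 and 1.41-fold for sgRNA-AP1-69, and sgRNA-FOXF1 was slightly below it, at a log2 ratio of -0.13. Neighbouring genes of the cluster therefore had different patterns, since IFIT5 held 2.5, 2.4, 2.4 and 2.2 RPKM in the same order of libraries and IFIT2 stayed at 1.1 RPKM or the floor in every library. IFIT1 is the gene with the largest ratios of the whole group, and they rest on a single control value at the floor.

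Among the restriction factors of the membrane, IFITM3 and IFITM2 held the highest levels of the group. IFITM3, which stops viruses from fusing with endosomes, was at 337.0 RPKM in sgRNA-FOXF1 cells, 227.8 RPKM in sgRNA-AP1-71 cells and 218.1 RPKM in sgRNA-AP1-69 cells, against 270.9 RPKM in sgRNA-NT cells, which placed it at percentiles of 98.6 to 99.1 among all genes by level. Its neighbour IFITM2 was at 135.5, 70.6 and 88.0 RPKM with sgRNA-FOXF1, sgRNA-AP1-71 and sgRNA-AP1-69, against 105.9 RPKM with sgRNA-NT. Both genes were higher than the control with sgRNA-FOXF1 and lower with each enhancer guide, and IFITM2 with sgRNA-AP1-71 lay just at the limit, 1.5-fold lower. After the length correction the log2 ratios with sgRNA-FOXF1, sgRNA-AP1-71 and sgRNA-AP1-69 were 0.08, -0.91 and -0.55 for IFITM2 and 0.03, -0.61 and -0.65 for IFITM3, so that both lay near the control with sgRNA-FOXF1 and IFITM3 was past 1.5-fold lower with each enhancer guide. IFITM1, the member found at the cell surface, had a different pattern, with 26.5, 25.2 and 25.7 RPKM in the targeted libraries, against 19.3 RPKM with sgRNA-NT, and its targeted libraries differed by less than their distance to the control. After the length correction the log2 ratios of IFITM1 were 0.18, 0.03 and 0.09 in place of 0.46, 0.38 and 0.41, near the control. The IFITM genes are close copies that lie within chr11:303655-329475 in hg19, so reads can be shared or lost between them, and their single values are uncertain for that reason. BST2 encodes tetherin, which holds budding virus on the cell surface, and was at 2.3 RPKM in sgRNA-FOXF1 cells, 5.0 RPKM in sgRNA-AP1-71 cells and 2.9 RPKM in sgRNA-AP1-69 cells, against 1.7 RPKM in sgRNA-NT cells. It was highest with sgRNA-AP1-71, 2.94-fold above the control and 1.72-fold above the other enhancer guide. The length-corrected log2 ratios of BST2 were 0.16, 1.23 and 0.49 in place of 0.44, 1.56 and 0.77. The library with sgRNA-AP1-71 alone thus stayed past 1.5-fold.

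ISG15, its conjugating enzyme UBE2L6 and its protease USP18 were above the control in every targeted library, as were 40.3% of all genes compared. Past 1.5-fold upwards were 2, 3 and 1 of these 3 genes with sgRNA-FOXF1, sgRNA-AP1-71 and sgRNA-AP1-69, against 11.6%, 14% and 8.18% of all genes. ISG15 itself, the ubiquitin-like protein, was at 33.8 RPKM in sgRNA-FOXF1 cells, 57.8 RPKM in sgRNA-AP1-71 cells and 41.5 RPKM in sgRNA-AP1-69 cells, against 27.0 RPKM in sgRNA-NT cells. The enhancer guides were 2.14-fold and 1.54-fold above the control and sgRNA-FOXF1 was 1.25-fold above it. Its transcript is short, at 637 nt, and after the length correction its log2 ratios were 0.04, 0.74 and 0.29 in place of 0.32, 1.10 and 0.62, so that the library with sgRNA-AP1-71 alone stayed past 1.5-fold. UBE2L6, the enzyme that conjugates ISG15 to its targets, was at 46.8, 47.0 and 41.8 RPKM with sgRNA-FOXF1, sgRNA-AP1-71 and sgRNA-AP1-69, against 29.8 RPKM with sgRNA-NT. The enhancer guides lay 1.12-fold apart, and the targeted libraries were 1.57-fold, 1.58-fold and 1.40-fold above the control. The length-corrected log2 ratios of UBE2L6 were 0.39, 0.35 and 0.24 in place of 0.65, 0.66 and 0.49, none of them past 1.5-fold. USP18, which removes ISG15 and dampens signalling from the receptor, was at 3.3, 4.3 and 2.7 RPKM in the same order, against 2.1 RPKM with sgRNA-NT, or 1.57-fold, 2.05-fold and 1.29-fold higher. The length-corrected log2 ratios of USP18 were 0.47, 0.84 and 0.21 in place of 0.65, 1.03 and 0.36. For USP18, too, the library with sgRNA-AP1-71 alone stayed past 1.5-fold. HERC6, a gene of the HERC ligase family, left the floor with sgRNA-AP1-71 only, at 1.4 RPKM. HERC5 of the same family, which is outside the group, was at the floor in every library, so no rise of an ISG15 ligase is read from HERC6.

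Among the remaining genes, IFI35, which encodes a protein that interacts with NMI, was the one past 1.5-fold in every targeted library. It lies at chr17:41158757-41166473 in hg19 and was at 13.8 RPKM in sgRNA-FOXF1 cells, 20.9 RPKM in sgRNA-AP1-71 cells and 14.3 RPKM in sgRNA-AP1-69 cells, against 7.0 RPKM in sgRNA-NT cells. All 3 targeted libraries were above the control, by 1.97-fold, 2.99-fold and 2.04-fold, and the length-corrected log2 ratios of 0.72, 1.27 and 0.77 kept each of them past 1.5-fold. NMI was at the floor in all 4 libraries. LGALS3BP, a secreted glycoprotein, was at 49.0, 34.8 and 32.6 RPKM with sgRNA-FOXF1, sgRNA-AP1-71 and sgRNA-AP1-69, against 39.0 RPKM with sgRNA-NT, and IFI6 at 39.5, 40.9 and 30.3 RPKM, against 39.3 RPKM with sgRNA-NT. Neither reached 1.5-fold in any library. IFI44 left the floor with sgRNA-AP1-71 only, at 1.8 RPKM. DTX3L, a ubiquitin ligase that works with PARP9, was between 1.4 and 2.2 RPKM in all libraries, and PARP14 was at the floor in every targeted library, against 1.1 RPKM with sgRNA-NT.

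In the comparison of sgRNA-FOXF1 with sgRNA-NT, 5 of the 18 genes were at least 1.5-fold higher and 1 was at least 1.5-fold lower, and the median log2 ratio was 0.37, against 0.05 over all genes compared. Of all genes, 11.6% were past the same limit upwards and 13.2% downwards. The genes above it were IFIT1, IFI35, OAS3, USP18 and UBE2L6, and the gene below it was EIF2AK2. Among the 15 genes with at least 2 RPKM in sgRNA-NT cells, 4 were higher and the median was 0.33, against 8.84% and 0.0073 over all genes at that limit. At 2-fold, 1 gene was higher and 1 lower, against 3.2% and 4.96% of all genes. With the length correction 3 genes were past 1.5-fold upwards and 0 downwards.

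With sgRNA-AP1-71 against sgRNA-NT, 9 of the 18 genes were at least 1.5-fold higher, namely IFIT1, IFI35, BST2, OAS3, ISG15, IRF7, USP18, IFIT3 and UBE2L6, and EIF2AK2 and IFITM2 were lower. The background was 14% of all genes upwards and 14.7% downwards, and the median log2 ratio was 0.61, against 0.08 over all genes. At 2-fold, 7 genes were higher and 0 lower, against 3.8% and 6.38% of all genes. Without genes of low level the count and the median were smaller. Among the 9 genes that averaged 5 RPKM or more, the median was 0.06, against 0.09, and no longer exceeded that of all genes at that limit. Of these 9 genes, 3 were higher, against 12.6% of all genes. Among the 15 genes with at least 2 RPKM in sgRNA-NT cells, 6 were higher and the median was 0.38, against 11.3% and 0.03.

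With sgRNA-AP1-69 against sgRNA-NT, 5 of the 18 genes were at least 1.5-fold higher, IFIT1, IFI35, IRF7, BST2 and ISG15, and EIF2AK2 was lower, against 8.18% of all genes upwards and 9.93% downwards. At 2-fold, 3 genes were higher and 0 lower, against 1.34% and 3.3% of all genes. The median log2 ratio was 0.39, against 0.07 over all genes. Among genes that averaged 5 RPKM or more the median was -0.08 with 2 of 9 higher, against 0.08 and 6.46% over all genes at that limit, and among those with at least 2 RPKM in sgRNA-NT cells it was 0.13 with 2 of 15 higher, against 0.03 and 5.97%, so that the higher median of this library rests on genes of low level.

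These 3 comparisons share the sgRNA-NT library, so that any deviation of that library moves all of them alike. IFIT1 and IFI35 were past 1.5-fold upwards in each of them (4.98% of all genes were) and EIF2AK2 downwards (5.85% of all genes). Of the 18 genes, 7 were past 1.5-fold in none of the 3 comparisons: STAT2, IRF1, IFIT5, IFITM1, IFITM3, IFI6 and LGALS3BP. With the length correction 3 of these 7 passed it, IFITM3 downwards with both enhancer guides, IFI6 downwards with sgRNA-AP1-69 (log2 ratio of -0.68) and IRF1 upwards with sgRNA-AP1-71 (0.67).

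The guides against the same AP-1 site did not give the same levels. The median log2 ratio of sgRNA-AP1-71 over sgRNA-AP1-69 was 0.13 over the 18 genes, against 0.0 over all genes, whose ratios had an SD of 0.29. Of the 18 genes, 12 were higher with sgRNA-AP1-71, 3 were lower and 3 were equal to the decimal given, whereas 47.3% of all genes compared were higher with sgRNA-AP1-71. Past 1.5-fold were BST2 (1.72-fold), USP18 (1.59-fold) and IRF1 (1.51-fold) upwards and none downwards, against 2.41% and 2.84% of all genes. ISG15, IFI35 and OAS3 lay between 1.39-fold and 1.47-fold. The single highest level of a gene was that with sgRNA-FOXF1 for 7 of the 18 genes, with sgRNA-AP1-71 for 10, with sgRNA-AP1-69 for 0 and with sgRNA-NT for 1, where 25.6%, 28.8%, 12.8% and 29.2% of all genes compared had theirs in the same libraries. The spread between these guides is the closest that the data hold to an error, and for BST2, IRF1 and USP18 it was a log2 difference of 0.79, 0.60 and 0.67.

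Set against the mean of both enhancer guides, which leaves out sgRNA-NT, sgRNA-FOXF1 gave a median log2 ratio of 0.06 over the 18 genes, against -0.03 over all genes. IFITM2 and IFITM3 were at least 1.5-fold higher, at log2 ratios of 0.78 and 0.60, and IFIT3 and BST2 were at least 1.5-fold lower, at -0.77 and -0.73, against 5.86% of all genes upwards and 3.54% downwards. For ISG15 the log2 ratio was -0.54, and for IFIT1 it was 0.37. The sign of the median changed with the guide used: it was 0.16 against sgRNA-AP1-69 alone and -0.11 against sgRNA-AP1-71 alone. With both guides kept, the median over every gene of the group above the floor was -0.046, and the mean over the 18 genes was -0.019. In this comparison the ratios of all genes moved with the GC content of the transcript (Spearman's rho = 0.60 across 7566 genes of the same libraries, which are not independent), and with GC content removed the log2 ratios were 0.62 for IFITM2, 0.41 for IFITM3, -0.53 for IFIT3, -0.90 for BST2 and -0.87 for ISG15, which left IFITM3 and IFIT3 within 1.5-fold and took ISG15 past it, as it did IRF7 at -0.86 and IFIT1 at 0.62.

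Transcript length moved with the ratios to sgRNA-NT over the whole table. Longer transcripts had lower ratios, with Spearman's rho across 7566 genes of -0.45 for sgRNA-FOXF1, -0.44 for sgRNA-AP1-71 and -0.50 for sgRNA-AP1-69. The 18 genes have shorter transcripts than the table as a whole, with a median of 1891 nt, against 2902 nt. Among the 18 genes themselves the rank correlation with length was -0.032, -0.016 and -0.0031 in the same order. After a correction of every ratio for length, the medians of the 18 genes were 0.24, 0.51 and 0.22, against 0.06, 0.08 and 0.07 over all genes, and 3, 9 and 4 genes were at least 1.5-fold higher with sgRNA-FOXF1, sgRNA-AP1-71 and sgRNA-AP1-69. For GC content, rho over all genes was 0.33, -0.10 and 0.04 in the same order. The 18 genes had a median GC content of 54.7%, against 50.6%. With GC content removed, a correction not planned beforehand, their medians were 0.26, 0.57 and 0.33. The genes at least 1.5-fold higher were then 4, 9 and 5, as UBE2L6 fell to 0.53 with sgRNA-FOXF1.

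Upstream genes of the pathway were described from lists that hold no gene of the group, and their counts at 1.5-fold stand beside 11.6%, 14% and 8.18% of all genes higher and 13.2%, 14.7% and 9.93% lower with sgRNA-FOXF1, sgRNA-AP1-71 and sgRNA-AP1-69. None of the 10 interferon genes listed, IFNB1 among them, was in the table used here. Of 6 receptor genes 5 were compared, with 0, 1 and 0 of them higher and 1, 1 and 1 lower by 1.5-fold with sgRNA-FOXF1, sgRNA-AP1-71 and sgRNA-AP1-69. IFNAR1 was at 5.7, 6.0 and 6.4 RPKM with sgRNA-FOXF1, sgRNA-AP1-71 and sgRNA-AP1-69, against 11.0 RPKM with sgRNA-NT, and was the single receptor gene past 1.5-fold in all 3 comparisons, downwards. Its partner IFNAR2 was at 2.8, 2.7 and 2.4 RPKM, against 2.3 RPKM with sgRNA-NT. Of the 4 JAK and STAT genes compared, none was past 1.5-fold in all 3 comparisons, none was higher, and 2, 0 and 1 were lower. JAK1, the kinase held by IFNAR2, was at 10.8, 14.4 and 11.6 RPKM, against 18.2 RPKM with sgRNA-NT. TYK2, the kinase held by IFNAR1, was at 13.3, 12.1 and 12.1 RPKM, against 12.8 RPKM with sgRNA-NT.

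Among 18 symbols for the sensing of nucleic acids, 12 were in the table and 9 were compared, of which 2, 1 and 0 were higher and 1, 2 and 2 lower, and TMEM173 alone was past 1.5-fold in all 3 comparisons. TMEM173, the gene of STING, was at 11.5, 14.7 and 16.4 RPKM with sgRNA-FOXF1, sgRNA-AP1-71 and sgRNA-AP1-69, against 26.1 RPKM with sgRNA-NT. MAVS, the adaptor of the RNA sensors, whose transcript has 11731 nt, had log2 ratios of -0.51, -1.76 and -1.37 to its level of 27.1 RPKM with sgRNA-NT and was named after its values were seen. MB21D1, the gene of cGAS, was near the floor at 1.3 RPKM, 1.2 RPKM and the floor, against the floor with sgRNA-NT. IRF3, the factor activated through STING, was at 13.3, 14.3 and 12.9 RPKM, against 10.4 RPKM with sgRNA-NT. Of 8 genes that clear nucleic acids 5 were compared, and RNASEH2A, the catalytic subunit of RNase H2, was higher in all 3 comparisons at 19.9, 23.1 and 17.4 RPKM, against 10.1 RPKM with sgRNA-NT. Of 8 negative regulators 5 were compared, of which 1, 1 and 0 were higher and 1, 2 and 2 lower, and PTPN11, the gene of the phosphatase SHP2, was lower in all 3 comparisons at 5.5, 7.2 and 8.2 RPKM, against 14.9 RPKM with sgRNA-NT. SOCS1, an inhibitor of JAK kinases that interferon induces, was at 10.6 and 10.4 RPKM with sgRNA-FOXF1 and sgRNA-AP1-71 and at 4.3 RPKM with sgRNA-AP1-69, against 3.0 RPKM with sgRNA-NT.

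A further 51 interferon-stimulated genes outside the group were listed, of which 42 were in the table, 7 of them at the floor throughout, and 24 were compared. With sgRNA-FOXF1 5 were at least 1.5-fold higher and 3 lower than with sgRNA-NT, with sgRNA-AP1-71 9 were higher and 3 lower, and with sgRNA-AP1-69 2 were higher and 2 lower, and their median log2 ratios were 0.11, 0.33 and 0.21. The share that was higher was thus 20.8% with sgRNA-FOXF1, 37.5% with sgRNA-AP1-71 and 8.33% with sgRNA-AP1-69, to be read against the same backgrounds as above. GBP1, a guanylate-binding protein, was higher in all 3 comparisons at 3.2, 4.5 and 3.3 RPKM, against 1.8 RPKM with sgRNA-NT. TRIM21, an antibody receptor of the cytosol, was higher as well at 17.5, 20.8 and 17.8 RPKM, against 10.2 RPKM with sgRNA-NT. GBP1, and GBP4 at 1.3 RPKM with sgRNA-NT, passed the limit on level only through the targeted libraries. Their higher ratios are partly fixed by that limit, and both genes enter the counts above. Lower in all 3 comparisons were ZC3HAV1, the zinc-finger antiviral protein, at 3.3, 3.3 and 3.4 RPKM, against 5.4 RPKM with sgRNA-NT, and RNF213, a large ubiquitin ligase, at 4.7, 5.2 and 4.9 RPKM, against 8.4 RPKM with sgRNA-NT. Of the listed pathway genes lower in all 3 comparisons, ZC3HAV1, RNF213, IFNAR1, PTPN11 and TMEM173 have transcripts of 7177, 21079, 6075, 6073 and 2170 nt. Those of the higher genes RNASEH2A, TRIM21 and GBP1 have 1164, 1935 and 2883 nt, and the median of all genes compared is 2902 nt. Length-corrected ratios of these genes are not given here, and the part of transcript length in their ratios was not tested.

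Other measures moved with the conditions as well, and their part in these results, like that of the HRAS level, was not tested. The 13 mRNAs encoded by the mitochondrial genome had median log2 ratios of -0.77, -1.54 and -1.02 with sgRNA-FOXF1, sgRNA-AP1-71 and sgRNA-AP1-69. All 8 fibroblast markers were in the table, with summed levels of 5087, 5362 and 5170 RPKM, against 3559 RPKM with sgRNA-NT. That sum is mostly VIM and S100A4, and the markers differed in direction: 3, 1 and 1 of the 8 were at least 1.5-fold higher and 1, 3 and 3 lower, with median log2 ratios of 0.23, -0.04 and -0.08. COL1A1, a collagen gene, was at 115.6, 42.5 and 53.7 RPKM, against 120.6 RPKM with sgRNA-NT. Past 1.5-fold in all 3 comparisons were 1 marker upwards, S100A4, and 1 downwards, PDGFRA, at 3.5, 5.0 and 3.9 RPKM, against 8.9 RPKM with sgRNA-NT. PTPRC and EPCAM, which define leukocytes and epithelial cells, were not in the table used here. Of 8 leukocyte markers CD14 alone was, at 6.0, 8.5 and 7.9 RPKM, against 9.8 RPKM with sgRNA-NT. Of 6 epithelial markers KRT8 and KRT18 were in it (summed 137.7, 83.6 and 144.1 RPKM, against 80.5 RPKM with sgRNA-NT), and of 5 endothelial markers TIE1, at 3.3, 2.4 and 1.2 RPKM, against the floor with sgRNA-NT.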

How the data were processed

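RNA from 1 library per condition was measured by poly(A) RNA-seq. The sample labels name Trizol, Oligotex and the TruSeq RNA kit, while the methods of the study name Trisure and the stranded TruSeq kit. Per the methods, the authors mapped reads to hg19 (TopHat2), assigned them to GENCODE v25 genes (HTSeq-count), computed RPKM and quantile-normalized the 4 libraries. Tool versions: not given in the sources used here. Deposited RPKM values have a floor of 1 and 1 decimal, so read depth and counting error are unknown. The table also holds 3 columns of the authors' own log2 ratios to the control, which were not used.

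Log2 ratios were computed without a pseudocount for genes that averaged 2 RPKM or more, and differences were counted at 1.5-fold, with no test. The members and the gene lists were chosen with earlier results of these data known. Genes named by rule were compared members past 1.5-fold in any targeted library, STAT2, IRF9, IRF1, IRF7, ISG15, DDX58, IFNB1, IFNAR1, IFNAR2, JAK1, TYK2, IRF3 and cGAS, and listed pathway genes past 1.5-fold in all 3 comparisons, except a gene that is not reported here. Others were named after their values were seen. Each gene took its length and GC content from its Ensembl canonical transcript (GENCODE v44, mapped to GRCh37), available for 99.6% of compared genes, and corrections used a cubic spline with 5 knots, a procedure tested on simulated data. Alternatives were a pseudocount of 1 RPKM, other limits on level, median centring, length and GC corrections, a 2-fold limit, the mean over members and each enhancer guide alone. Promoter sequences are from RefSeq (GRCh38.p14). Python 3.11.15, numpy 2.4.6, pandas 2.3.3 and matplotlib 3.10.9 were used.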

Additional observations from a re-analysis of the deposited data

Results flagged for a closer look

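For 5 of the 18 compared genes, sgRNA-FOXF1 lay on one side of sgRNA-NT and both enhancer guides on the other, as was the case for 13% of all genes compared. None of these differences was tested, since each rests on single libraries. As log2 ratios of sgRNA-FOXF1 over the mean of both enhancer guides, they were 0.78 for IFITM2, 0.60 for IFITM3, 0.54 for LGALS3BP and 0.21 for STAT2, which were higher than sgRNA-NT with sgRNA-FOXF1 and lower with the guides, and -0.77 for IFIT3, which was the other way round. For IFIT3 the side of sgRNA-FOXF1 changed with the GC correction (log2 ratio to sgRNA-NT of 0.10 in place of -0.13). For STAT2 the length correction placed both enhancer guides at 0.00 and 0.10, no longer below sgRNA-NT.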

How the results depend on the processing

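No paired analysis was possible because each condition has 1 library. The medians of the 18 genes kept their sign in the 3 comparisons with sgRNA-NT under every alternative tried except 1: among the 9 genes that averaged 5 RPKM or more, the median was -0.080 with sgRNA-AP1-69, in place of 0.39, and 0.058 with sgRNA-AP1-71, in place of 0.61. With every gene above the floor the median was 0.18 with sgRNA-FOXF1 and 0.093 with sgRNA-AP1-69. With the length correction it was 0.22 with sgRNA-AP1-69. With at least 2 RPKM in sgRNA-NT cells, a limit chosen after the data were seen, it was 0.38 with sgRNA-AP1-71 and 0.13 with sgRNA-AP1-69. For sgRNA-FOXF1 over the enhancer guides it ranged between -0.11 and 0.16 with each guide left out in turn. There the median was -0.046 with every gene above the floor, in place of 0.059, and the mean over members was -0.019.

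Counts at 1.5-fold moved by more than 1.5 times as follows. Among genes that averaged 5 RPKM or more, 2, 3 and 2 genes were higher and 0, 1 and 0 lower with sgRNA-FOXF1, sgRNA-AP1-71 and sgRNA-AP1-69. With the length correction, 3 were higher and 0 lower with sgRNA-FOXF1, and 2 were lower with sgRNA-AP1-69. At 2-fold, 1 was higher with sgRNA-FOXF1, 3 were higher with sgRNA-AP1-69, and 0 were lower with each enhancer guide. With a pseudocount of 1 RPKM, 0 were lower with each enhancer guide. With at least 2 RPKM in sgRNA-NT cells, 2 were higher with sgRNA-AP1-69. Apart from the alternatives that by construction keep fewer genes or set a larger limit, the cause of these shifts was not tested. For 13 single genes, 156 log2 ratios were recomputed under a pseudocount, centring, length or GC correction. Of these, 51 moved by at least the SD between the enhancer guides for that gene. That SD is no measure of error alone, and for IFIT1 and EIF2AK2 it was 0.0, so that any shift of theirs was counted. Ratios past 1.5-fold changed sign in 0 cases, but a pseudocount cannot change a sign and centring shifts ratios little. Sign changes of ratios within 1.5-fold were not counted. Some occurred, as for IFIT3 with sgRNA-FOXF1 under the GC correction (0.10 in place of -0.13). Without replicates or read counts, differences near the floor carry an unknown error.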
